A study of Mus musculus with 9 samples.

Results

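The lysosome genes described here are 40 genes chosen by name: the MiT/TFE transcription factors Tfeb, Tfe3 and Mitf, their regulator folliculin (Flcn), and genes for lysosomal hydrolases, membrane proteins, proton pump subunits and a few linked proteins. Each name matched a gene in the deposited table of 38940 genes, and 39 passed a filter on low values. Ctsh did not, being listed at 0.0305 ± 0.0194 FPKM across control, 0.06200 ± 0.0286 across Taz KO and 0.0773 ± 0.0492 across double KO (SD, n = 3). Mouse embryonic stem cells, the cultured pluripotent cells of the early embryo, were profiled by poly(A) RNA-seq in 3 groups of 3 libraries. Control cells carried floxed Yap and floxed Taz alleles, and the series' design text calls them wildtype. Taz KO cells were deleted for Taz and kept floxed Yap. Yap/Taz double KO cells were deleted for both by their titles and descriptions, although their genotype field repeats that of Taz KO. YAP and TAZ are the transcriptional co-activators at the end of the Hippo pathway, and the comparisons ask how these cells differ without TAZ and without both.

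All groups were grown on fibronectin in N2B27 with 2i/Lif, that is 0.4 µM of the MEK inhibitor PD0325901, 3 µM of the GSK3 inhibitor CHIR99021 and 4 ng/ml Lif. A Cre-ERT2 transgene, driven by the ubiquitous CAG promoter by its plasmid name, was brought in on a piggyBac transposon, and 500 nM 4-OHT switched the recombinase on. The labels do not say whether control cells received these, whether a group was 1 clone, or whether libraries of a group came from separate cultures. P-values therefore rest on library-to-library spread that may be technical.

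Lysosomes are the acidic compartments in which cells break down proteins, glycans and lipids. A proton pump acidifies them, soluble hydrolases digest their contents, and glycosylated membrane proteins line them and carry products out. MiT/TFE factors bind a palindromic E-box known as the CLEAR element in the promoters of many lysosomal genes and activate them together. Nutrient signals through mTORC1, the Rag GTPases and folliculin hold these factors in the cytoplasm, so RNA levels do not show how active they are. In mouse embryonic stem cells folliculin is known for promoting exit from the naive state by keeping Tfe3 out of the nucleus.

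The letters of the CLEAR element are shown here because it is known from the promoters of many lysosomal genes. Most of the members did not hold it in the windows searched, where 10 of 35 had a match of the kind shown. RefSeq promoter windows on GRCm38.p6 ran from 250 bases before to 50 after an annotated start. They were found for 35 of the 40 members, all but Ctsb, Ctsh, Npc1, Asah1 and Atp6v1h. A gene can have several such starts, and a match in any window counted. Ctsa and Cln3 had 2 windows each, and the window with the match lies inside the gene. For Ctsa it begins at 164833523, where the gene's GENCODE start is 164832873. For Cln3, on the minus strand, it ends at 126583486, where the gene's start is 126585817. Each line gives the longest match to TCACGTGA or GTCACGTG, on either strand, with 20 bases on each side. Matches lying close together share a line. The first 8 members in list order that held a match are shown, and Cln3, added after its letters were seen because its match is the longest. Capitals mark the matching letters.
Lamp1, chr8:13159113-13159160, plus strand: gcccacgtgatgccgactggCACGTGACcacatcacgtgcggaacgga
Ctsa, chr2:164833739-164833805, plus strand: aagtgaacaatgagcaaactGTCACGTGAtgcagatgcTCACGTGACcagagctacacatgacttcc
Ctsd, chr7:142387898-142387946, minus strand: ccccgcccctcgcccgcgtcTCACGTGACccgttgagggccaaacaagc
Gla, chrX:134601173-134601253, minus strand: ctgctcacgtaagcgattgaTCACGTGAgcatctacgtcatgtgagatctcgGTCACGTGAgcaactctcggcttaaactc
Glb1, chr9:114401008-114401055, plus strand: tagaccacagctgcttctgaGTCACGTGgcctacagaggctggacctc
Naglu, chr11:101069999-101070046, plus strand: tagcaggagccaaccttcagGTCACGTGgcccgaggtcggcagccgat
Mcoln1, chr8:3500426-3500501, plus strand: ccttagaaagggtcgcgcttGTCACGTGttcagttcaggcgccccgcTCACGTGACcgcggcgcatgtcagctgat
Atp6v0d1, chr8:105566041-105566089, minus strand: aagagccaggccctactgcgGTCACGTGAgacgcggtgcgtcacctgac
Cln3, chr7:126583330-126583379, minus strand: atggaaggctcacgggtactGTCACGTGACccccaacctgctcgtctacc

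TCACGTGA or GTCACGTG stood in a window of 10 of the 35 members (28.6%) and of 2.77% of the 27025 genes with a window. Counted by single windows of 300 bases, the shares were 23.3% of 43 and 2.43% of 32851. The 6-base core CACGTG, which lies inside both words, was in 14 of these members and 8.09% of genes. TCACGTGA was in 6 members and 1.12% of genes, and GTCACGTG, which can overlap it, in 10 members and 2.55% of genes. The related word TCATGTGA, searched after the others had been seen, was in 4 members (Gla, Tpp1, Ppt1 and Grn) and 1.15% of genes. The element was first described in lysosomal promoters, so these shares describe sequences and are not a result of the libraries. Of 19 members with a window that rose in double KO against control 7 held TCACGTGA or GTCACGTG, and of 16 not called 3 did.

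Gpnmb had the largest fold change of the members, and its window held none of these 4 words.
Gpnmb, chr6:49036268-49036567, plus strand: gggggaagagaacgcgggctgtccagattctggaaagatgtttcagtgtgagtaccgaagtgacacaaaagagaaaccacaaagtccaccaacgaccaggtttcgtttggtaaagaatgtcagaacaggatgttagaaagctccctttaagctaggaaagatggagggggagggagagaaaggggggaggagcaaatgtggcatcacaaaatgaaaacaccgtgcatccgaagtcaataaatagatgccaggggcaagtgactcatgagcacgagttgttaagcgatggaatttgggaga
A missing match says only that these letters are not in this window.

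The libraries held 19.1 to 24.0 M reads, recovered from the steps of the FPKM values (reads per kilobase of gene, scaled for depth). Yap1 was at 18.4 ± 0.573 FPKM across control, 18.3 ± 0.346 across Taz KO and 4.25 ± 0.334 across double KO (SD, n = 3). Wwtr1, the Taz gene, was at 12.1 ± 0.847, 10.8 ± 1.58 and 13.9 ± 0.772 FPKM, a value summed over the gene that does not check a deleted part. All 9 stem cell markers examined were above 1 FPKM, and their sum spanned 5017 to 5391 FPKM across control, 4204 to 4540 across Taz KO and 2646 to 2882 across double KO. Most of this fall was that of Dppa5a, from a mean of 3261 FPKM in control to 1139 in double KO. Of the 9 markers 5 fell in double KO against control (Dppa5a, Klf4, Tdgf1, Sox2 and Nanog), Zfp42 rose, and Pou5f1, Esrrb and Tfcp2l1 were not called. Zfp42 lies on chromosome 8, and its log2 fold change of 0.70 was 0.39 relative to it. The part of these changes in the results below was not tested. Genes of chromosomes 6, 8, 14 and Y stood apart from control in both knockout groups, which touches 9 members and is given with their results.

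Lysosome genes were higher in double KO cells than in control cells. Of the 39 members tested 20 rose (51.3%), against 12.4% of all 11674 genes tested. The members were chosen with earlier results of these data known. The shares given here and below therefore describe the set and are not an independent test of it. The 20 were spread over proteases, glycan hydrolases, lipid-handling proteins, membrane proteins and the proton pump, and included folliculin, while Tfeb, Tfe3 and Mitf did not pass the test. No member fell by limma, against 12.9% of all genes, and at an unadjusted p under 0.05 there were 23 members higher and 1 lower. Limma's voom on the recovered reads called 20 higher and 1 lower, the protease gene Ctsc. The median log2 fold change, on the log2(FPKM + 0.5) scale used throughout, was 0.45 for the members and -0.02 for all genes. In mean FPKM 6 members differed by 2-fold or more from control: Gpnmb, Plbd1, Sqstm1, Mcoln1, Hexa and Cln3.

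Libraries did not overlap between double KO and control for 25 members that were higher (64.1%) and 2 that were lower (5.13%), where 21.7% and 23.8% of all genes did so. Lipa and Plbd1 averaged under 1 FPKM in control and passed the filter through the knockout groups. Over the 37 members that averaged at least 1 FPKM in every group, 19 rose (51.4%, against 12.1% of all such genes). With the replicate number as a block 26 members rose and 3 fell (Ctsc, Scarb2 and Atp6v1h), against 24.2% and 28.1% of all genes. Without control 1 the count was 15, and 15 of the 20 members were called whichever library was left out.

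**Figure D1:**
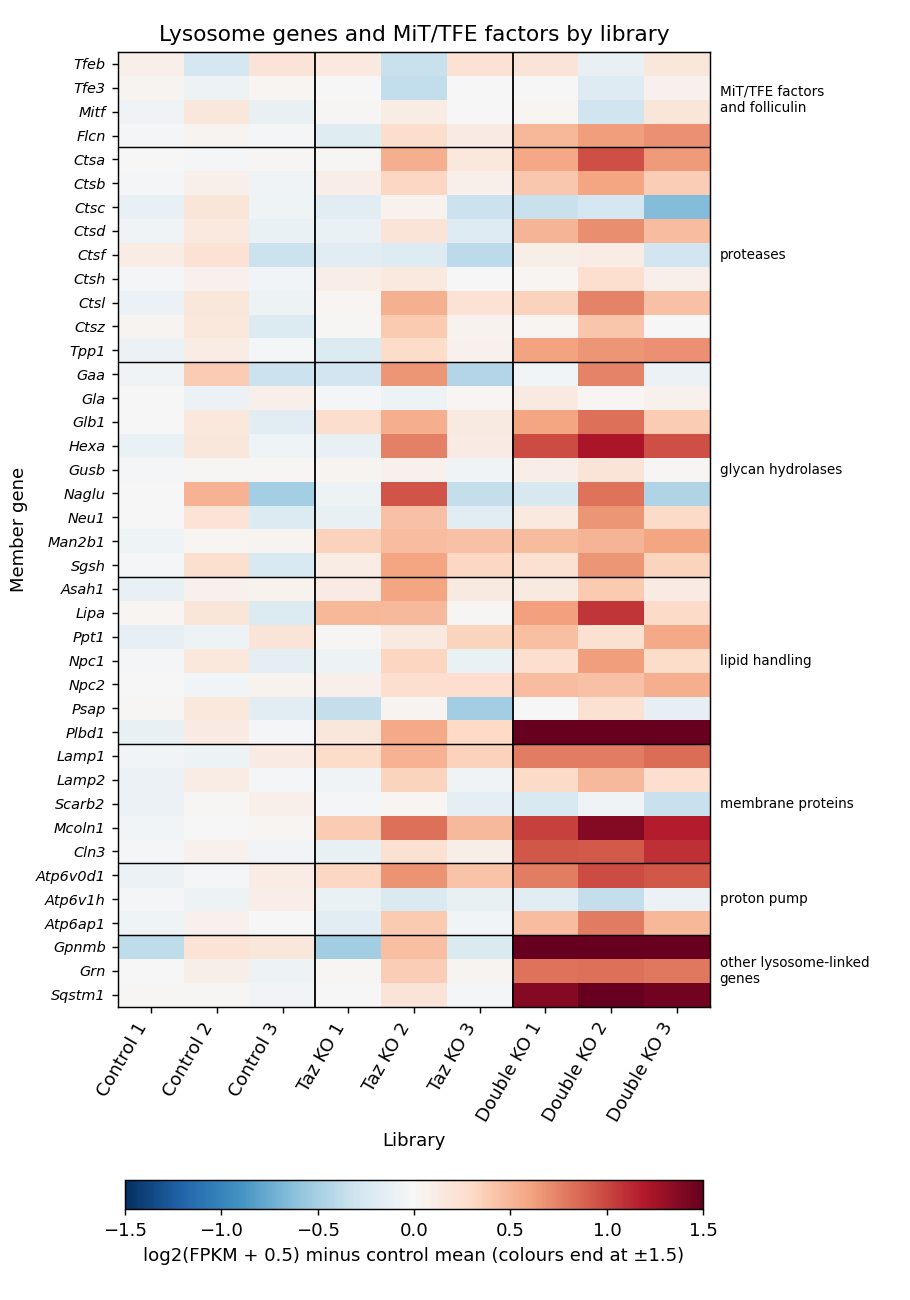
Heat map of log2(FPKM + 0.5) minus the mean of the 3 control libraries, with members in rows grouped by role and libraries in columns. Most fields of the double KO columns are red, deepest for Plbd1, Gpnmb and Sqstm1, while the rows of Tfeb, Tfe3 and Mitf are pale in every group and Ctsc is blue in double KO.

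The genes of the 3 factors did not pass the test in any comparison. Tfeb, the best known activator of lysosomal genes (chromosome 17, 47737030 to 47792419 on GRCm38, GENCODE annotation), was at 9.04, 7.04 and 9.902 FPKM in control libraries 1, 2 and 3, at 9.53, 6.67 and 10.04 in Taz KO and at 9.86, 7.93 and 9.72 in double KO. The groups overlapped, and replicate 2 was the lowest in each. In double KO against control the Tfeb log2 fold change was 0.08 (adjusted p = 0.749, SE 0.17).

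Tfe3, the family member linked to the naive state (chromosome X, 7762560 to 7775202), was at 10.3, 9.43 and 10.2 FPKM across control, 9.93, 7.62 and 10.1 across Taz KO and 9.94, 8.68 and 10.4 across double KO. Its groups overlapped too, and the log2 fold change in double KO against control was -0.05 (adjusted p = 0.799, SE 0.12). Mitf, the factor named for its role in pigment cells (chromosome 6, 97807052 to 98021349), was at 14.9, 17.4 and 14.2 FPKM in control, against 15.7, 16.6 and 15.5 in Taz KO and 15.8, 12.4 and 17.6 in double KO. The lowest and the highest Mitf libraries were both double KO, and the log2 fold change against control was -0.03 (adjusted p = 0.894, SE 0.13). On the FPKM scale, which is per gene length, Mitf stood above Tfeb and Tfe3 in every library.

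Folliculin rose. Flcn (chromosome 11, 59791408 to 59810016) was at 14.2, 14.9 and 14.2 FPKM across control, 12.7, 17.4 and 15.7 across Taz KO and 20.5, 22.6 and 23.5 across double KO. Every double KO library was above every other library, and Taz KO and control overlapped. For Flcn the log2 fold change was 0.60 (adjusted p = 0.0059, SE 0.11) against control and 0.54 (adjusted p = 0.0175, SE 0.11) against Taz KO.

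**Figure D2:**
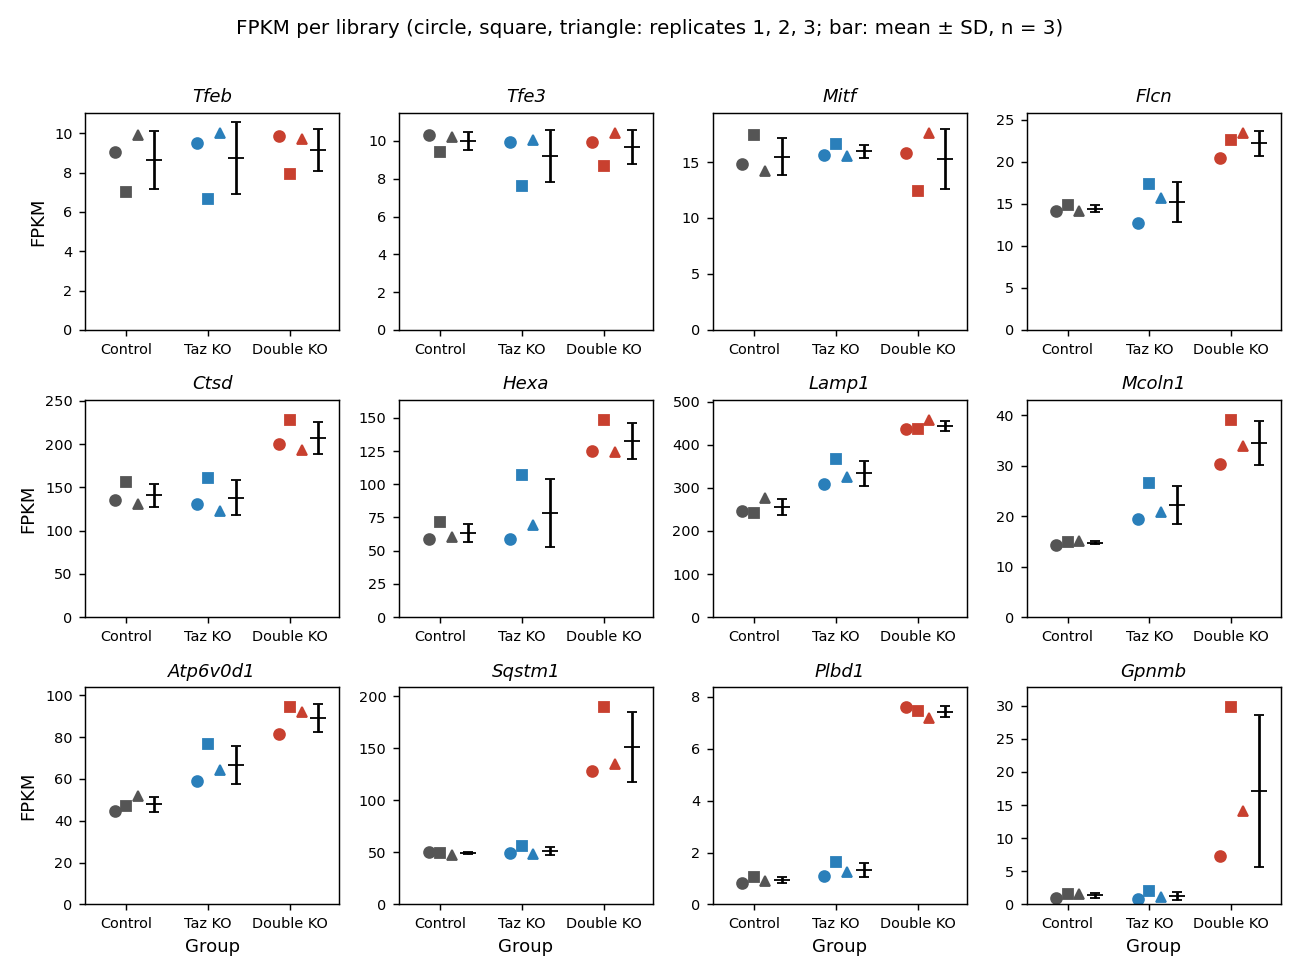
FPKM in each library for 12 members, with circles, squares and triangles for replicates 1, 2 and 3 and the mean ± SD beside each group (n = 3); each panel has its own axis from 0. The groups overlap for Tfeb, Tfe3 and Mitf, and in the other 9 panels every double KO library lies above every control and Taz KO library.

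Among the lysosomal proteases, 5 of 8 tested members rose in double KO against control, with a median log2 fold change of 0.48. Ctsd, an aspartic protease and among the most abundant members, was at 136, 156 and 131 FPKM in control, against 131, 161 and 122 in Taz KO and 199.7, 228 and 193 in double KO. All double KO libraries were above all others. Against control, Ctsd had a log2 fold change of 0.55 (adjusted p = 0.0125, SE 0.12), and without control 1 its adjusted p was 0.0534.

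Tpp1, a peptidase that trims tripeptides from protein ends and is lost in a form of Batten disease, was at 28.6, 33.1 and 29.99 FPKM across control, 26.4, 36.98 and 31.9 across Taz KO and 46.5, 48.5 and 49.3 across double KO. It showed the same separation as Ctsd, with a log2 fold change of 0.65 (adjusted p = 0.00543, SE 0.12). Ctsa, a carboxypeptidase that also protects the enzymes of Glb1 and Neu1, was at 38.4, 38.2 and 39.2 FPKM in control, against 38.96, 56.5 and 43.2 in Taz KO and 57.9, 75.97 and 60.2 in double KO. Taz KO 2 came close to the lowest double KO library, and the log2 fold change of Ctsa against control was 0.73 (adjusted p = 0.0083, SE 0.15).

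The cysteine protease genes moved unequally. Ctsb was at 55.9, 59.4 and 54.3 FPKM across control, 60.7, 70.2 and 59.5 across Taz KO and 74.95, 85.4 and 72.9 across double KO, a log2 fold change of 0.45 (adjusted p = 0.00933, SE 0.09) against control. Ctsl was at 68.1, 81.3 and 68.6 FPKM in control, against 73.9, 105 and 84.2 in Taz KO and 92.3, 122 and 98.5 in double KO, a log2 fold change of 0.51 (adjusted p = 0.0376, SE 0.15). Both were separated from control, but Ctsl in Taz KO 2 exceeded 2 of the double KO libraries, and leaving out single libraries raised its adjusted p to as much as 0.124.

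Ctsc, which activates serine proteases of immune cells by trimming them, was at 13.9, 17.3 and 14.4 FPKM across control, 13.3, 15.7 and 12.04 across Taz KO and 11.8, 12.5 and 9.46 across double KO. It was lower in every double KO than in every control library, with a log2 fold change of -0.42 (adjusted p = 0.0525, SE 0.14). With the replicate block its adjusted p was 0.00173. Ctsf and Ctsz, at group means of 2.70 to 46.7 FPKM, did not pass the test, with log2 fold changes of -0.03 and 0.14.

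Of the 9 glycan hydrolases 3 rose in double KO against control, with a median of 0.36. Hexa, the alpha subunit of the hexosaminidase that is missing in Tay-Sachs disease (chromosome 9, 59539540 to 59565109), was at 58.8, 71.4 and 60.2 FPKM in control, against 58.5, 107 and 69.1 in Taz KO and 125, 148 and 124 in double KO. Double KO stood above both other groups, and Taz KO 2 stood above the rest of its own group. Against control, Hexa had a log2 fold change of 1.06 (adjusted p = 0.00645, SE 0.20), and its mean was 2.09 times that of control.

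Glb1, the lysosomal beta-galactosidase, was at 63.5, 70.2 and 56.1 FPKM across control, 75.4, 92.2 and 69.1 across Taz KO and 95.3, 112 and 82.3 across double KO. Double KO was above control throughout but overlapped Taz KO, and the log2 fold change against control was 0.60 (adjusted p = 0.0186, SE 0.15). Without control 1, control 3 or double KO 1 the Glb1 call was lost, with an adjusted p of up to 0.0665. Man2b1, an alpha-mannosidase, was at 26.5, 28.4 and 28.6 FPKM in control, against 35.4, 38.6 and 37.8 in Taz KO and 38.98, 39.7 and 42.3 in double KO, so both knockout groups lay above control. Its log2 fold change in double KO was 0.53 (adjusted p = 0.00147, SE 0.07), and relative to the median of chromosome 8, where it lies, 0.22 with an adjusted p of 0.0972.

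The other 6 glycan hydrolase genes did not pass the test. Gaa, which digests glycogen, was at 25.9, 35.2 and 21.4 FPKM across control, 21.9, 42.9 and 19.7 across Taz KO and 26.2, 45.4 and 25.3 across double KO, and replicate 2 was the highest in each group. Naglu, which digests heparan sulfate, had 1.31, 2.105 and 0.775 FPKM in control, then 1.22, 3.01 and 0.921 in Taz KO and 1.03, 2.702 and 0.825 in double KO, again highest in replicate 2. The log2 fold changes in double KO against control were 0.21 for Gaa, 0.04 for Naglu, 0.07 for Gla, 0.10 for Gusb, 0.36 for Neu1 and 0.41 for Sgsh. Neu1 and Sgsh passed with the replicate block, with adjusted p-values of 0.00696 and 0.0172.

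Among 7 lipid-handling members 3 rose in double KO against control, with a median of 0.42. Plbd1, a phospholipase B-like protein (chromosome 6, 136612070 to 136661928), was at 0.828, 1.06 and 0.919 FPKM in control, against 1.11, 1.62 and 1.26 in Taz KO and 7.604, 7.47 and 7.202 in double KO. The 3 double KO libraries lay close together and far above all others, which rested on at least 47 reads each. For Plbd1 the log2 fold change was 2.47 (adjusted p = 2.42e-05, SE 0.12) against control and 2.12 (adjusted p = 0.000133, SE 0.12) against Taz KO.

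Npc2, which hands cholesterol to NPC1 inside the lysosome, was at 114, 111 and 119 FPKM across control, 122, 137 and 137 across Taz KO and 159, 156 and 168 across double KO. The groups lay in that order without overlap, and the log2 fold change in double KO against control was 0.48 (adjusted p = 0.00284, SE 0.08). Ppt1, which removes palmitate from proteins, was at 10.8, 11.2 and 13.5 FPKM in control, against 11.95, 12.97 and 15.05 in Taz KO and 16.3, 13.9 and 17.7 in double KO. Its log2 fold change was 0.42 (adjusted p = 0.0402, SE 0.13), the weakest call of the 20, with an adjusted p of up to 0.14 when a library was left out.

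Npc1, the cholesterol exporter, had a log2 fold change of 0.39 (adjusted p = 0.0883, SE 0.15), and Lipa, the acid lipase that frees cholesterol, of 0.66 (adjusted p = 0.0672, SE 0.23). Neither passed the test, although their control and double KO libraries did not overlap, and both passed with the replicate block (adjusted p = 0.00145 and 0.00405). Asah1, the acid ceramidase, had 0.22 (adjusted p = 0.272, SE 0.14), and with the block an adjusted p of 0.0475. Psap, the precursor of the saposins that present lipids to hydrolases, was at 204, 225 and 179 FPKM across control, 157, 208 and 139.8 across Taz KO and 202, 237 and 186 across double KO. Its control and double KO libraries overlapped, with a log2 fold change of 0.04 (adjusted p = 0.877, SE 0.16).

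Of 5 membrane proteins 3 rose in double KO against control, with a median of 0.80. Lamp1, the main glycoprotein of the lysosomal membrane (chromosome 8, 13159161 to 13175338), was at 247, 243 and 277 FPKM in control, against 309, 366 and 325 in Taz KO and 436, 436 and 458 in double KO. It had the highest mean of all members in double KO, and the 3 groups did not overlap. Against control, Lamp1 had a log2 fold change of 0.80 (adjusted p = 0.000594, SE 0.09), and 0.48 relative to its chromosome (adjusted p = 0.00703).

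Mcoln1, the lysosomal calcium channel TRPML1 (chromosome 8, 3500457 to 3515232), was at 14.4, 14.8 and 15.02 FPKM across control, 19.4, 26.5 and 20.8 across Taz KO and 30.4, 39.1 and 33.9 across double KO. The groups again lay in that order without overlap. The log2 fold change in double KO against control was 1.19 (adjusted p = 0.000544, SE 0.13), and 0.88 relative to chromosome 8 (adjusted p = 0.00565). Cln3, the membrane protein lost in juvenile Batten disease, was at 5.09, 5.42 and 5.02 FPKM in control, against 4.75, 6.14 and 5.53 in Taz KO and 10.3, 10.2 and 11.6 in double KO. Taz KO and control overlapped, double KO stood apart, and the log2 fold change against control was 0.98 (adjusted p = 0.000432, SE 0.10).

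Lamp2, the close relative of Lamp1 that serves chaperone-mediated autophagy, was at 21.04, 24.3 and 22.03 FPKM across control, 21.6, 28.4 and 21.5 across Taz KO and 27.5, 31.6 and 26.8 across double KO. The log2 fold change was 0.34 (adjusted p = 0.0695, SE 0.12), with an adjusted p of 0.00209 under the replicate block. Scarb2, the sorting receptor of beta-glucocerebrosidase, had 17.4, 18.7 and 19.5 FPKM in control, then 18.1, 18.9 and 16.6 in Taz KO and 15.8, 17.9 and 14.6 in double KO, with a log2 fold change of -0.20 (adjusted p = 0.14, SE 0.09). With the block Scarb2 was called lower (adjusted p = 0.0467), although its groups overlapped.

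Of the 3 proton pump members 2 rose in double KO against control. Atp6v0d1, a subunit of the membrane sector, was at 44.8, 47.2 and 51.7 FPKM in control, against 59.2, 76.7 and 64.4 in Taz KO and 81.7, 94.3 and 91.8 in double KO, with no overlap between groups. Its log2 fold change was 0.89 (adjusted p = 0.00107, SE 0.11), and 0.58 relative to chromosome 8 (adjusted p = 0.0127). Atp6ap1, an accessory subunit needed for assembly, was at 26.03, 28.6 and 27.4 FPKM across control, 24.2, 35.9 and 26.4 across Taz KO and 37.9, 47.3 and 38.6 across double KO.

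Every double KO library was above every other for Atp6ap1, and the log2 fold change against control was 0.58 (adjusted p = 0.0218, SE 0.15), with an adjusted p of up to 0.0803 when a library was left out. Atp6v1h, a regulatory subunit of the cytosolic sector, was at 68.6, 66.2 and 74.4 FPKM in control, against 64.9, 59.7 and 64.7 in Taz KO and 62.6, 54.2 and 65.6 in double KO. All its knockout libraries were below all controls, and the log2 fold change in double KO against control was -0.20 (adjusted p = 0.138, SE 0.09), with 0.0117 under the replicate block.

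The 3 other linked genes all rose in double KO, and their median of 1.59 was the highest of the role groups. Sqstm1, the autophagy receptor p62, which is itself digested in lysosomes (chromosome 11, 50199366 to 50210827), was at 49.9, 49.6 and 47.9 FPKM across control, 49.2, 56.3 and 48.7 across Taz KO and 128, 189.6 and 135 across double KO. Control and Taz KO lay close together, and double KO had 3.07 times the control mean. For Sqstm1 the log2 fold change was 1.59 (adjusted p = 0.000238, SE 0.14) against control and 1.53 (adjusted p = 0.000707, SE 0.14) against Taz KO.

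Gpnmb, a membrane glycoprotein of lysosomes and melanosomes (chromosome 6, 49036546 to 49070929), was at 0.916, 1.63 and 1.57 FPKM in control, against 0.784, 2.03 and 1.09 in Taz KO and 7.36, 29.8 and 14.1 in double KO. All double KO libraries were above all others but differed widely among themselves, with replicate 2 the highest. The log2 fold change of Gpnmb was 3.04 (adjusted p = 0.00218, SE 0.45) against control and 3.13 (adjusted p = 0.00469, SE 0.45) against Taz KO. Grn, the precursor of the granulins, which support lysosomal enzymes, was at 65.3, 69.4 and 61.98 FPKM across control, 66.2, 84.9 and 67.3 across Taz KO and 115, 116 and 114 across double KO, with the double KO libraries close together and above all others. The log2 fold change of Grn against control was 0.81 (adjusted p = 0.00114, SE 0.10).

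**Figure D3:**
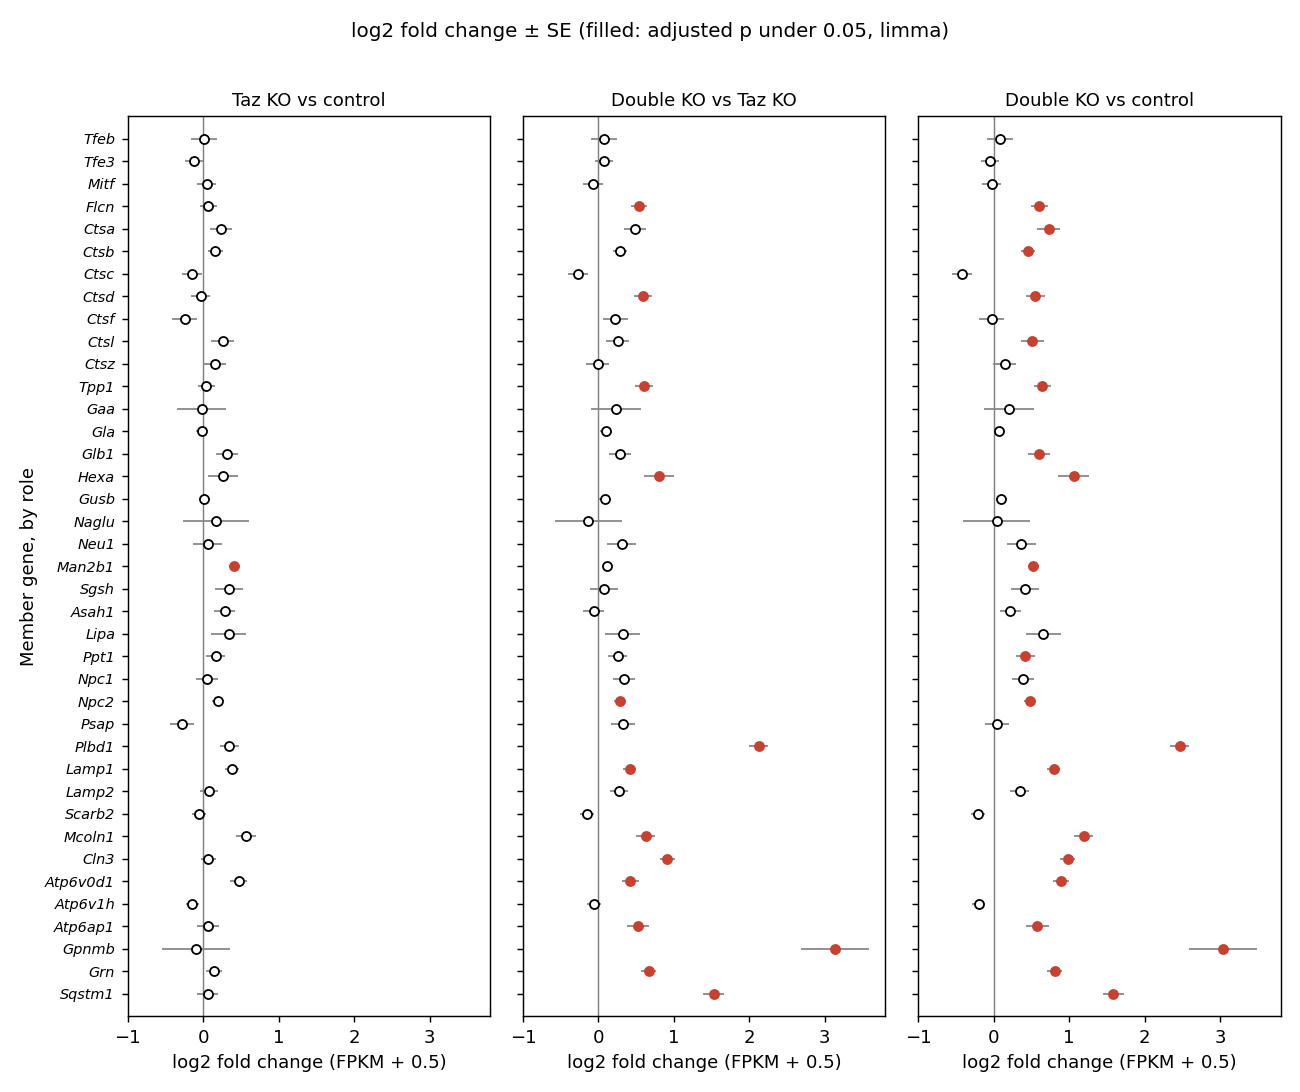
Log2 fold change ± SE of each tested member, on the log2(FPKM + 0.5) scale, in 3 comparisons, with filled points for an adjusted p under 0.05 by limma. Of 39 members 1 is filled in Taz KO against control, 14 in double KO against Taz KO and 20 in double KO against control, all to the right of 0.

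Loss of TAZ alone came with few member calls. In Taz KO against control 1 of 39 members rose (2.56%, against 0.72% of all genes), and none fell by limma (0.565% of all genes). At an unadjusted p under 0.05 there were 6 higher and 0 lower, voom called 1 higher and 0 lower, and the median log2 fold change was 0.07 for members and 0.01 for all genes. Libraries did not overlap for 8 higher members (20.5%, against 10.9% of genes) and 1 lower, Atp6v1h (7.84% of genes). Of the 37 members with at least 1 FPKM in every group it was also 1 (0.716% of such genes). The member called was Man2b1, with a log2 fold change of 0.41 (adjusted p = 0.0287, SE 0.07). Relative to chromosome 8 it was 0.07 (adjusted p = 0.943), and its call was lost in 8 of the 9 fits that left out a library, all but that without double KO 2.

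With the replicate block 6 members were higher in Taz KO (Man2b1, Mcoln1, Atp6v0d1, Lamp1, Glb1 and Ctsl) and Psap was lower, against 7.78% and 4.05% of all genes. The first 4 of these lie on chromosome 8. Relative to their own chromosome and with the block, Glb1 and Ctsl were higher and Psap lower (2.21% and 3.23% of all genes). Without the block the log2 fold changes were 0.57 (adjusted p = 0.0746, SE 0.13) for Mcoln1, 0.47 (adjusted p = 0.0853, SE 0.11) for Atp6v0d1 and 0.38 (adjusted p = 0.0807, SE 0.09) for Lamp1. The members with the largest folds in double KO did not pass in Taz KO, with 0.34 (adjusted p = 0.267, SE 0.12) for Plbd1, -0.09 (adjusted p = 0.983, SE 0.45) for Gpnmb and 0.06 (adjusted p = 0.955, SE 0.14) for Sqstm1.

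The comparison of double KO with Taz KO bears on YAP in cells that lack TAZ. It called 14 of 39 members higher (35.9%, against 6.42% of all genes) and none lower by limma (7.45% of all genes). At an unadjusted p under 0.05 there were 16 higher and 0 lower, and voom called 14 and 0. The median log2 fold change was 0.29 for members and -0.04 for all genes. The 14 higher members were Flcn, Ctsd, Tpp1, Hexa, Npc2, Plbd1, Lamp1, Mcoln1, Cln3, Atp6v0d1, Atp6ap1, Gpnmb, Grn and Sqstm1. Of the 37 members with at least 1 FPKM in every group 13 were called (35.1%, against 6.17% of such genes). All 14 were also among the 20 called against control, with which this comparison shares the double KO libraries.

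Their log2 fold changes against Taz KO ranged from 0.29 (adjusted p = 0.038, SE 0.08) for Npc2 to 3.13 for Gpnmb. Among the hydrolase genes Ctsd had 0.59 (adjusted p = 0.0175, SE 0.12) and Tpp1 0.60 (adjusted p = 0.0139, SE 0.12). The pump genes Atp6v0d1 and Atp6ap1 had 0.42 (adjusted p = 0.0371, SE 0.11) and 0.52 (adjusted p = 0.0483, SE 0.15). Cln3 had 0.91 (adjusted p = 0.00153, SE 0.10), Grn 0.67 (adjusted p = 0.00576, SE 0.10) and Hexa 0.80 (adjusted p = 0.0322, SE 0.20). For Lamp1 and Mcoln1, whose Taz KO levels lay between the other groups, the values were 0.41 (adjusted p = 0.0187, SE 0.09) and 0.63 (adjusted p = 0.0164, SE 0.13). Libraries did not overlap for 18 higher members (46.2%, against 14.1% of genes) and for none that were lower (16.5%). With the replicate block 23 members were higher and Ctsc was lower (16.8% and 25.6% of all genes). Plbd1, Cln3, Gpnmb, Grn and Sqstm1 were called whichever library was left out. Dropping a Taz KO library gave 7 (replicate 1), 19 (replicate 2) or 6 (replicate 3) members, and dropping double KO 1 or 3 gave 9 or 6. The count was also 7 when only these 2 groups entered the fit.

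The chromosome shift touches 9 tested members. The median log2 fold change of all tested genes in double KO against control was 0.30 on chromosome 8, 0.19 on chromosome 6 and 0.11 on chromosome 14. In Taz KO against control it was 0.35, 0.21 and 0.10, and in double KO against Taz KO -0.04, -0.01 and 0.00. Asah1, Atp6v0d1, Lamp1, Man2b1 and Mcoln1 lie on chromosome 8, Gpnmb, Mitf and Plbd1 on chromosome 6, and Ctsb on chromosome 14.

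On these chromosomes 7 of 9 members rose in double KO against control, where 29.3% of genes did. On the other chromosomes 13 of 30 members rose, where 9.83% of genes did, with a median of 0.40 for members and -0.05 for all genes there. Relative to the median of their own chromosome 19 of 39 members rose (12.4% of genes) and none fell by limma (12.4% of genes), the lost call being that of Man2b1. With the block added, 25 rose and 2 fell (24.3% and 26.2% of genes). For Taz KO against control limma called no member on this scale, and 0.188% of genes higher and 0.531% lower. In double KO against Taz KO 13 members were called higher and none lower (7.67% and 7.17% of genes), without Atp6ap1 (adjusted p = 0.0727). Relative to chromosome 8, Mcoln1 in Taz KO had a log2 fold change of 0.22, Atp6v0d1 of 0.13, Lamp1 of 0.04 and Asah1 of -0.06, none of which passed. With the block, 25 members were higher and 1 lower in double KO than in Taz KO on this scale (19.7% and 22.2% of genes).

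**Figure D4:**
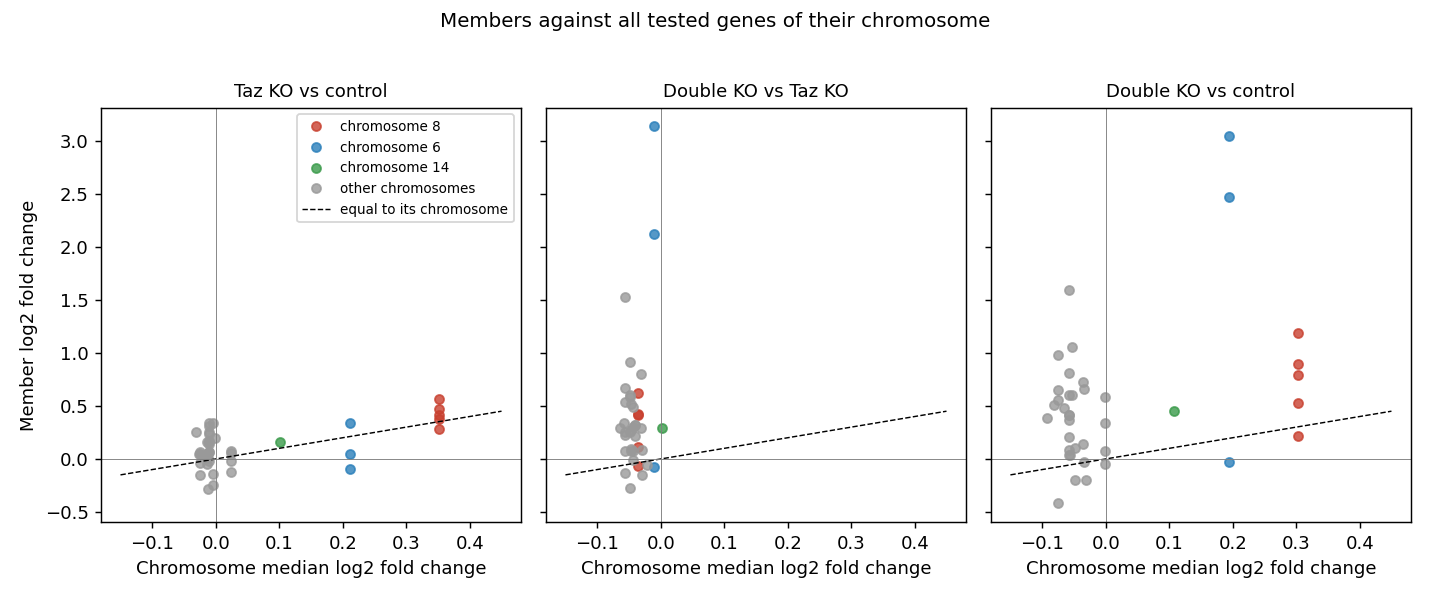
Each point is a tested member, with the median log2 fold change of all tested genes on its chromosome on the x axis and its own on the y axis, in 3 comparisons; the dashed line marks equal values. In double KO against control, 4 of the 5 chromosome 8 members and both chromosome 6 members at 2.47 and 3.04 lie above the line.

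Replicate 2 was often the highest library of its group among the members. This held for 25 of 39 members in control (64.1%, against 35% of all genes tested), 31 in Taz KO (79.5%, against 37.2%) and 26 in double KO (66.7%, against 34.3%). Gaa and Naglu, described above, differed more between replicates than between groups. The labels do not say what the replicate number marks.

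Genes of the same pathway outside the 40 were counted from lists written with these results known, and the value given for each named gene is its log2 fold change. In double KO against control 12.4% of all genes rose and 12.9% fell, and 24.2% and 28.1% did with the replicate block. Of 15 other proton pump subunits 5 rose (10 with the block), with a median log2 fold change of 0.19. Tcirg1, a membrane sector subunit, had 0.68 (adjusted p = 0.0128, SE 0.15), and Atp6v1b2, a cytosolic sector subunit on chromosome 8, 0.58 (adjusted p = 0.0042, SE 0.10), or 0.26 relative to it (adjusted p = 0.0354). Atp6v1b2 was also called in Taz KO, with 0.52 (adjusted p = 0.0455, SE 0.10), but not relative to its chromosome (adjusted p = 0.512). Of 27 other lysosomal hydrolases 21 were tested and 6 rose, with a median of 0.17, and 10 rose and 3 fell with the block. Relative to their own chromosome 4 of the 21 rose and none fell, against 12.4% of genes in each direction. Dpp7, a dipeptidyl peptidase, had 0.87 (adjusted p = 0.000974, SE 0.11), and Aga, which cleaves glycoasparagines, 0.96 (adjusted p = 0.00612, SE 0.18). Aga lies on chromosome 8, and relative to it the adjusted p was 0.0667.

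Of 16 other lysosomal membrane proteins 5 rose in double KO (11 with the block), with a median of 0.35. Ctns, the cystine exporter lost in cystinosis, had 0.92 (adjusted p = 0.000578, SE 0.10), and Slc36a1, an amino acid exporter, 0.58 (adjusted p = 0.00697, SE 0.11). Of 9 genes that sort hydrolases to the lysosome 2 rose (5 with the block), a small count to read against the 12.4% of all genes. They were the receptor Sort1 with 0.64 (adjusted p = 0.0269, SE 0.17) and Gnptg, part of the enzyme that adds the mannose 6-phosphate tag, with 0.41 (adjusted p = 0.00754, SE 0.08). In Taz KO against control none of these hydrolase, membrane and sorting genes was called by limma. With the replicate block 3 of 21, 1 of 16 and 0 of 9 were called higher, against 7.78% of all genes.

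Folliculin works with partners that signal nutrients at the lysosome. Of 19 genes of that machinery 5 rose and 2 fell in double KO against control, with a median of 0.05, where 12.4% and 12.9% of all genes did. With the block 5 rose and 4 fell, against 24.2% and 28.1% of all genes. Fnip2, a binding partner of folliculin, had 0.99 (adjusted p = 0.0214, SE 0.25), and Rragd, a Rag GTPase on which folliculin acts, 0.98 (adjusted p = 0.00325, SE 0.16). Lamtor2, part of the Ragulator scaffold that anchors the Rag GTPases, was lower, with -0.83 (adjusted p = 0.00107, SE 0.10). Of 19 autophagy genes 6 rose and 1 fell, with a median of 0.19, and 8 rose and 3 fell with the block. Optn, a cargo receptor like p62, had 0.74 (adjusted p = 0.00371, SE 0.12), and Map1lc3b, which coats autophagosome membranes, 0.55 (adjusted p = 0.00254, SE 0.08). Map1lc3b lies on chromosome 8, and relative to it the value was 0.24 (adjusted p = 0.0343).

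Markers of lysosome-rich or pigmented cells were checked beside these rises. Of 9 macrophage markers none averaged 1 FPKM or more, Lyz2, Cx3cr1 and Tyrobp were at 0 in all libraries, and the sum spanned 0.271 to 0.540 FPKM across control, 0.194 to 0.457 across Taz KO and 0.348 to 0.606 across double KO. Of 6 melanocyte markers Dct and Tyrp1 were at 0 and only Pmel, a relative of Gpnmb that forms melanosome fibrils, averaged 1 FPKM or more. The melanocyte sum was 23.4 to 25.3 FPKM across control, 25.4 to 33.0 across Taz KO and 43.7 to 44.7 across double KO. The other detected melanocyte markers were at lower means in double KO than in control, Mlana at 0.603 against 1.89 FPKM, Tyr at 0.412 against 0.735 and Sox10 at 0.112 against 0.130, and were not tested. Pmel alone was higher, with a log2 fold change in double KO against control of 0.97 (adjusted p = 0.000484, SE 0.10).

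Of 8 fibroblast markers Postn, Dcn and Lum were at 0, and 1, Thy1, was above 1 FPKM on average. The fibroblast sum was 2.15 to 4.12 FPKM across control, 1.77 to 5.89 across Taz KO and 3.17 to 10.9 across double KO. Thy1 went from a mean of 2.72 FPKM in control to 5.87 in double KO, with overlapping libraries. It was not called by the main limma fit (adjusted p = 0.202) but was called higher with the replicate block (adjusted p = 0.00267). Of 8 endoderm markers 1 averaged 1 FPKM or more, and the sums of 2.73 to 3.82, 1.76 to 4.26 and 1.90 to 4.15 FPKM overlapped. Of 8 trophectoderm markers 4 averaged 1 FPKM or more, and the sums were 41.0 to 47.1 FPKM across control, 41.8 to 55.2 across Taz KO and 57.9 to 99.0 across double KO. Krt8 carried most of this difference, from a mean of 25.04 FPKM in control to 50.9 in double KO, and was called higher, as was Eomes with the replicate block. Krt7 went from 3.297 FPKM in control down to 1.42 in double KO and was called lower with the block (adjusted p = 0.000941). The part of these markers in the member results was not tested. In bulk RNA a change in the number of cells of a type and a change in RNA per cell cannot be told apart.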

How the data were processed

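Poly(A) RNA from 9 libraries was sequenced. The authors deposited a table of FPKM values per gene, made on the build mm10 and with TopHat2 2.1.1, DESeq2 and HTSeq 0.6.1 in roles not given here, per the submitters' processing notes. Directional libraries were made, per the labels' protocols, and the counting strand is not given in the sources used here. Whole reads were recovered for 24621 of 24621 genes above 0 (tolerance 0.001), giving 19.1 to 24.0 M reads per library. Replicate pairs differed by more than sampling noise (chi-square per gene 4.71 to 36.4).

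Values were tested as log2(FPKM + 0.5) with limma 3.58.1 (R 4.3.3, trend) in genes with a mean of at least 1 FPKM over the 9 libraries, all 3 groups sharing 1 estimate of the spread, with two-sided p-values adjusted by Benjamini-Hochberg over 11674 genes and called under 0.05. The scripts were tested on simulated data with independent libraries and no replicate or chromosome effect. That simulation cannot show how the test behaves under the pairing of libraries seen here. The members and lists were chosen with earlier results of these data known. All members called are named with values, as are the 3 factors and Flcn, and up to 3 called genes of each other list, those with the largest changes. Same-numbered libraries deviated together (correlation 0.192 to 0.711 in 9 pairs, against -0.688 to 0.394 in 18 pairs of different number). The main fit had no replicate term, so its p-values and calls are unpaired. The replicate number was taken to pair libraries only in the fits named as having the block. Counts with the block are given for each comparison. The blocked value of each member whose call it changed is given for double KO against control only. Alternatives were another pseudocount (0.1 or 1), filter (none, or 5 FPKM) or scaling, voom, the block, values relative to the chromosome and leaving out each library. Factor protein sequences were not used here.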

Additional observations from a re-analysis of the deposited data

How the results depend on the processing

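The 20 members higher in double KO than in control all passed with either other pseudocount, quantile or equal total scaling, voom, the block and the fit of only the groups compared. With no filter 18 of them passed, and relative to the own chromosome 19. With the replicate block 2828 genes were higher and 3284 lower in double KO against control, 908 and 473 in Taz KO against control, and 1963 and 2984 in double KO against Taz KO. The members lower against control numbered 3 with the block, 1 with a mean of at least 5 FPKM and 1 with voom. In Taz KO 6 members were higher and 1 lower with the block, and in double KO against Taz KO 23 and 1. Adding the chromosome medians to the block, a setting chosen after seeing the data, gave 2838 and 3053 genes with 2 members lower, 258 and 377 genes with 2 members higher and 1 lower, and 2299 and 2596 genes with 25 members higher and 1 lower. In Taz KO against control 129 genes were higher with quantile scaling, 146 with equal total FPKM, 22 relative to the own chromosome and 35 with only the groups compared, and the members higher numbered 0 with quantile scaling, 0 relative to the chromosome and 0 with only the groups compared. In double KO against Taz KO 473 genes were higher with a mean of at least 5 FPKM, and 319 higher and 316 lower with only the groups compared, while the members higher numbered 9 with no filter and 7 with only the groups compared. The cause of these changes was not tested. Equal total FPKM moved the share of higher calls from 48.9% to 59.1% in double KO against control and from 46.3% to 58.6% against Taz KO. Leaving out each library in turn gave 788 to 1681 genes higher and 722 to 1897 lower in double KO against control, 1 to 133 and 10 to 104 in Taz KO against control, and 246 to 1096 and 237 to 1550 in double KO against Taz KO. The members higher ranged from 15 to 22, 0 to 1 and 6 to 19, and the members lower against control from 0 to 1 in double KO. Groups of 3 libraries limit the precision throughout.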
